A study of Mus musculus with 60 samples.

Results

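*Nccrp1*, *Slurp1* and *Tlx2* were 3 of the 56980 gene rows in 2 tables of RNA sequencing counts from mouse fibroblasts (FBs). They were chosen by their D/KO counts, in that none of the 3 had a single count in the 3 D/KO libraries at day 0 of reprogramming, while all 3 were abundant in D/KO cells after 2 and 4 days. The D/KO time course therefore picked these genes, and their D/KO values are given as a description without a test. The WT libraries and the inhibitor libraries took no part in that choice, and the tests on the 3 genes were made there.

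The study asked how induction of Oct4, Sox2, Klf4 and c-Myc (OSKM) over the first days of reprogramming changed FBs that lack normal ERCC1, a DNA repair endonuclease subunit. The reprogramming table held 36 libraries in 12 groups of 3. D/KO cells (genotype 4FJ_ERCC1_(d/-)) were tail tip FBs of a male mouse aged 8 weeks, and WT cells (genotype 4FJ_(+/-)_OCT4-GFP) were tail tip FBs of a female mouse aged 22 weeks. Genotype, sex, age and line therefore changed together and their parts in a D/KO to WT difference cannot be told apart. The D/KO line carried the doxycycline-inducible OSKM cassette at Col1a1 and the rtTA transactivator at ROSA26. The WT line carried an OSKM cassette with an Oct4-EGFP reporter, and its transactivator is not given in the sources used here. All 12 groups were cultured at 3% oxygen for at most 3 passages. Day 0 cells had no doxycycline, and day 2 and day 4 cells had doxycycline at 2 µg/ml for that long. Each day was sampled without and with VC, which was ascorbic acid at 50 µg/ml plus the GSK3 inhibitor CHIR99021 at 3 µM. The inhibitor table held 24 libraries in 8 groups of 3, in which no group had doxycycline in its labels. It covered Ercc1 d/- tail tip FBs of a female mouse aged 4 weeks as control or with Repsox, Vactosertib, DMH-1 or A83-01, control FBs from tail tip and from skin of Ercc1 +/+ female mice aged 14 weeks, and tail tip FBs labelled with TGFB, of genotype 4FJ_(+/-)_OCT4-GFP from a female mouse aged 22 weeks. The labels do not say that the 3 libraries of a group came from separate cultures or animals, so p-values measure the spread between these libraries, which may be technical.

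*Nccrp1* encodes a protein with an F-box associated domain, a fold that in related proteins binds glycoproteins, and it is known from squamous epithelium such as skin and oesophagus. *Slurp1* encodes a small secreted protein of the Ly6/uPAR family that binds nicotinic acetylcholine receptors on keratinocytes, and its loss causes the palmoplantar skin disorder Mal de Meleda. *Tlx2* encodes a homeobox transcription factor of neural crest derivatives that is needed for the enteric nervous system and is known to respond to BMP signalling. None of the 3 is a marker of FBs. Library counts come from mixed cells, so more cells that express a gene and more RNA per cell cannot be told apart.

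In the gene models of the count tables (GRCm39), *Nccrp1* (ENSMUSG00000047586) lay at chr7:28243021-28246679 on the minus strand, with 6 merged exons and 1531 exon bases. *Slurp1* (ENSMUSG00000022596) lay at chr15:74596167-74599883 on the minus strand, with 4 merged exons and 2933 exon bases. *Tlx2* (ENSMUSG00000068327) lay at chr6:83045305-83047274 on the minus strand, with 2 merged exons and 1582 exon bases. Since the 3 genes appeared together in D/KO cells, the 250 bases before the start of each canonical GENCODE M39 transcript are shown on the transcribed strand, 5′ to 3′, with capitals on matches to the motifs searched. The windows were chr7:28246680-28246929 for *Nccrp1*, chr15:74599893-74600142 for *Slurp1* and chr6:83047359-83047608 for *Tlx2*, all on the minus strand.
Nccrp1: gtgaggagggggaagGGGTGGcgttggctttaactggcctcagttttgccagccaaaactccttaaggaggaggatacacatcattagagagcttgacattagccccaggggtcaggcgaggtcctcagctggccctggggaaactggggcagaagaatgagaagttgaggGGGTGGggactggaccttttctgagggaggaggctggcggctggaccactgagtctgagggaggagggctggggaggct
Slurp1: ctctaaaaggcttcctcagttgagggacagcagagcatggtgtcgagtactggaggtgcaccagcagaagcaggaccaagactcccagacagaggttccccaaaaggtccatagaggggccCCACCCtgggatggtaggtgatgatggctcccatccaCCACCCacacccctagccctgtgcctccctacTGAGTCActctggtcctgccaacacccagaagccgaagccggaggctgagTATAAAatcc
Tlx2: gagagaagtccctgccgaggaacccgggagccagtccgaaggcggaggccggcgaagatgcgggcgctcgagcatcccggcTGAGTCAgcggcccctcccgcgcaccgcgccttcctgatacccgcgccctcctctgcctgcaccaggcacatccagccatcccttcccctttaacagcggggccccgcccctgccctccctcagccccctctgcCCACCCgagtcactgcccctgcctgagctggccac

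A set of 7 motifs was searched on both strands. KLF factors were searched as CCACCC and SOX factors as ACAAAG. The octamer bound by Oct4 was searched as ATGCAAAT and the E-box bound by MYC as CACGTG. For AP-1 the letters were TGANTCA, for TCF/LEF they were CTTTGAT, and for the TATA box they were TATAAA. The KLF motif matched 2 times before *Nccrp1*, 2 times before *Slurp1* and 1 time before *Tlx2*. Of the 21757 windows of the same length before protein coding genes, 28.6% held it at least 1 time and 7.69% held 2 or more. The AP-1 motif matched before *Slurp1* and before *Tlx2*, and 6.18% of all windows held it. The letters TATAAA matched before *Slurp1*, 10 to 5 bases before the annotated start, and 11.9% of all windows held them. The octamer, SOX, MYC and TCF/LEF motifs did not match in any of the 3 windows, and were held by 1.49%, 15.9%, 6.26% and 2.85% of all windows. The *Tlx2* window had 71.6% G and C and 20 CpG sites, while the *Nccrp1* and *Slurp1* windows had 59.2% and 58.0% with 3 CpG sites each, beside medians of 53.2% and 8 sites over all windows. These are matches of letters and no measure of binding.

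Each reprogramming library held 16538374 to 18484951 counts, and each inhibitor library 17102639 to 30599138. Levels are given as CPM, the counts scaled to a common library total by the TMM method. A library without a count allowed at most about 3 counts, which was 0.160 to 0.210 CPM on average in the day 0 groups. All 10 fibroblast markers were detected in every group, among them *Col1a1*, *Col1a2* and *Pdgfra*. The D/KO line at day 0 also carried 908 to 970 CPM over 10 endothelial markers, with *Pecam1* at 205 CPM and *Cdh5* at 279 CPM, against 16.4 to 18.4 CPM in the WT line.

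*Nccrp1* had 0 counts in all 6 D/KO libraries of day 0, without or with VC. At day 2 the 3 D/KO libraries held 457, 536 and 691 counts, or 31.7 ± 5.72 CPM (SD, n = 3). At day 4 they held 2558, 3329 and 2065 counts, or 141 ± 31.3 CPM. With VC the counts were 749, 941 and 1045 at day 2 (52.5 ± 8.05 CPM) and 8562, 10758 and 8958 at day 4 (508 ± 79.8 CPM). Every day 4 library was above every day 2 library of the same medium. Against a floor of 3 counts per library at day 0, the level was at least 777-fold higher at day 4 and at least 2416-fold higher at day 4 plus VC.

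*Slurp1* also had 0 counts in the 6 D/KO libraries of day 0. At day 2 the libraries held 1104, 1175 and 1300 counts (67.5 ± 3.75 CPM, SD, n = 3). At day 4 they held 2246, 2926 and 1956 counts (127 ± 24.05 CPM). With VC the counts were 1460, 1484 and 1708 at day 2 (89.3 ± 5.67 CPM) and 4803, 6853 and 8424 at day 4 (360 ± 96.8 CPM). The day 4 plus VC libraries were spread the widest of the *Slurp1* groups after day 0 in D/KO cells, with a coefficient of variation of 26.9% against 5.55% at day 2. The level was at least 696-fold higher at day 4 than the day 0 floor, and at least 1711-fold higher with VC.

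*Tlx2* had 0 counts in the D/KO libraries of day 0 and 0, 4 and 0 counts at day 0 plus VC. At day 2 the libraries held 315, 335 and 275 counts (17.5 ± 2.28 CPM, SD, n = 3). At day 4 they held 1586, 1902 and 1204 counts (83.5 ± 17.4 CPM), at least 459-fold above the day 0 floor. With VC the counts were 349, 474 and 387 at day 2 (23.3 ± 4.18 CPM) and 1321, 1549 and 1288 at day 4 (74.7 ± 10.1 CPM). The ratio of summed counts to day 0 plus VC was 800 at day 4 plus VC (95% counting interval 312 to 2937). It rests on the 4 counts of library 2 at day 0 plus VC. Unlike the other two genes, the *Tlx2* libraries of day 4 overlapped in range with those of day 4 plus VC. Intervals and floors here cover counting error only.

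**Figure D1:**
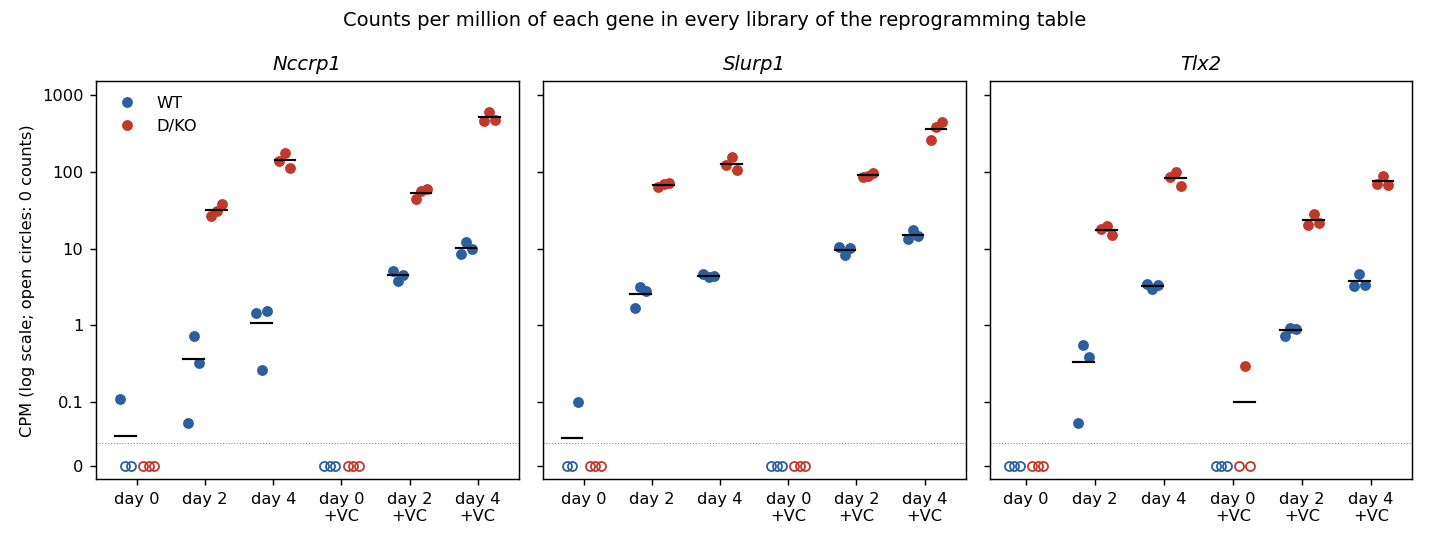
CPM of *Nccrp1*, *Slurp1* and *Tlx2* on a log axis in each of the 36 reprogramming libraries, by day and medium, with WT in blue and D/KO in red. Bars are means of 3 libraries and open circles mark libraries with 0 counts. D/KO libraries of days 2 and 4 lie above all WT libraries of the same gene, and in *Tlx2* the day 4 levels with and without VC overlap.

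*Pou5f1*, which encodes Oct4, was followed in the same libraries. In the D/KO day 4 group, library 2 had the highest level of each of the 3 genes (174, 153 and 99.4 CPM for *Nccrp1*, *Slurp1* and *Tlx2*) and the lowest *Pou5f1*, at 42.8 CPM against 70.9 and 78.4. At WT day 4, library 2 had the lowest *Pou5f1* (56.0 CPM against 59.9 and 65.8) and also the lowest level of each of the 3 genes. Over the 8 groups with doxycycline, the library of lowest *Pou5f1* was the highest of its group in 4 for *Nccrp1*, 5 for *Slurp1* and 4 for *Tlx2*, and the lowest in 2, 2 and 3. With 3 libraries a group, no relation between the genes and *Pou5f1* was tested.

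The same genes were near 0 in WT cells before doxycycline. *Nccrp1* had 2 counts in 1 WT day 0 library, *Slurp1* had 2 counts in 1 library, *Tlx2* had none, and none of the 3 had a count at day 0 plus VC. All 3 passed the count filter over the 18 WT libraries alone, so that passing did not hang on the D/KO libraries. The WT contrasts were tested by quasi-likelihood in edgeR, with p-values adjusted over 15832 genes.

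At WT day 2, *Nccrp1* held 1, 14 and 6 counts (0.368 ± 0.334 CPM, SD, n = 3), and the change from day 0 was not called by edgeR (adjusted p = 0.0847). *Slurp1* held 31, 62 and 51 counts (2.55 ± 0.789 CPM) and was higher than at day 0 (edgeR adjusted p = 1.49e-08), with a ratio of summed counts of 72.1 (95% counting interval 19.6 to 601). Without WT day 0 library 3, which held both day 0 counts of *Slurp1*, it was at least 15.6-fold above the floor and stayed called (edgeR adjusted p = 2.43e-07). *Tlx2* held 1, 11 and 7 counts (0.335 ± 0.259 CPM) and was higher than at day 0 (edgeR adjusted p = 0.00506), at least 2.09-fold above the floor. Thus 2 of the 3 genes were called higher at WT day 2, where 6.26% of all genes tested were called higher. Library 1 held 1 count of *Nccrp1* and of *Tlx2* and had the lowest *Slurp1*. Without that library *Nccrp1* was called too (edgeR adjusted p = 0.0261).

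At WT day 4, *Nccrp1* held 28, 5 and 28 counts (1.08 ± 0.709 CPM, SD, n = 3), *Slurp1* 91, 81 and 80 counts (4.45 ± 0.185 CPM) and *Tlx2* 68, 57 and 61 counts (3.29 ± 0.239 CPM). All 3 were higher than at day 0 (edgeR adjusted p = 0.000274, 3.00e-11 and 3.05e-10), beside 11.7% of all genes. The ratio of summed counts to day 0 was 30.4 for *Nccrp1* (95% counting interval 8.06 to 257) and 125 for *Slurp1* (34.4 to 1042), and *Tlx2* was at least 20.6-fold above the floor. Each ratio rests on 2 day 0 counts in 1 library, library 1 for *Nccrp1* and library 3 for *Slurp1*. Without that library day 0 held 0 counts, and against the floor of 3 counts per library *Nccrp1* was at least 6.88-fold higher and *Slurp1* at least 27.3-fold. Both stayed called (edgeR adjusted p = 0.000658 and 1.11e-09). From day 2 to day 4, *Tlx2* rose the most, by a fitted log2 change of 3.26 ± 0.38 (SE, edgeR adjusted p = 1.20e-06). With 1 library left out, this change ranged from 2.76 to 3.88 and stayed called. *Slurp1* rose by 0.80 ± 0.24 (edgeR adjusted p = 0.0182), a call that was lost without WT day 2 library 1 (log2 change 0.57, adjusted p = 0.1004) or without WT day 4 library 1 (0.77, adjusted p = 0.0568). *Nccrp1* had a log2 change of 1.51 ± 0.56 that was not called (edgeR adjusted p = 0.0530), and without the low library 2 of day 4 it was 1.97 (adjusted p = 0.0110). Without WT day 2 library 2 it was 2.46 (adjusted p = 0.0370). In this comparison 9.25% of all genes were called higher.

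With VC, all 6 *Nccrp1* and all 6 *Slurp1* libraries of WT cells after doxycycline were above those without VC on the same day. *Nccrp1* held 82, 69 and 75 counts at day 2 plus VC (4.46 ± 0.623 CPM, SD, n = 3) and 145, 220 and 181 at day 4 plus VC (10.1 ± 1.85 CPM). *Slurp1* held 171, 150 and 165 counts (9.59 ± 1.18 CPM) and then 227, 313 and 273 (15.02 ± 2.01 CPM). *Tlx2* held 12, 17 and 15 counts (0.861 ± 0.109 CPM) and then 56, 86 and 63 (3.79 ± 0.809 CPM). All 3 genes were higher than at day 0 plus VC on both days (largest edgeR adjusted p = 2.17e-05, for *Tlx2* at day 2), where 13.8% of all genes were called higher at day 2 and 22.7% at day 4. Relative to the floor at day 0 plus VC, *Nccrp1* was at least 52.8-fold, *Slurp1* at least 78.6-fold and *Tlx2* at least 19.8-fold higher at day 4. From day 2 to day 4 with VC, the log2 change was 2.13 ± 0.32 for *Tlx2*, 1.18 ± 0.26 for *Nccrp1* and 0.65 ± 0.19 for *Slurp1* (SE, edgeR adjusted p = 2.29e-05, 0.00188 and 0.0132), with 9.95% of all genes called higher. The *Slurp1* call was lost without library 2 of day 2 plus VC (log2 change 0.55, adjusted p = 0.0713) or without library 2 of day 4 plus VC (0.54, adjusted p = 0.0770).

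VC was then compared with no VC on the same day in WT cells. *Nccrp1* responded the most, with a fitted fold of 11.7 at day 2 (95% interval 6.31 to 21.8, edgeR adjusted p = 3.93e-07) and 9.29 at day 4 (5.89 to 14.6, adjusted p = 7.16e-09). *Slurp1* was 3.73-fold higher at day 2 (2.73 to 5.11, adjusted p = 1.58e-07) and 3.37-fold higher at day 4 (2.54 to 4.46, adjusted p = 7.46e-08). With 1 library left out, the *Nccrp1* log2 change at day 2 ranged from 3.05 to 4.50 and stayed called, with 4.50 without WT day 2 library 2 (3.55 with all libraries). The intervals of *Nccrp1* and *Slurp1* did not overlap on either day. *Tlx2* was 2.52-fold higher at day 2 (1.27 to 5.02, edgeR adjusted p = 0.0421), and at day 4 its fold was 1.15 (0.803 to 1.65, adjusted p = 0.647), so that a rise above 1.65-fold lay outside the interval. Thus 3 of 3 genes were called higher at day 2, beside 13.5% of all genes, and 2 of 3 at day 4, beside 12% of all genes.

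The *Tlx2* call at day 2 was lost in 5 of the 6 fits that left out 1 library, with adjusted p from 0.0556 to 0.206. Without WT day 2 library 1, the log2 change was 0.84 in place of 1.34. The difference between the VC effect at day 4 and at day 2 was not called for *Tlx2* (log2 difference −1.13 ± 0.55 SE, edgeR adjusted p = 0.235), *Nccrp1* (−0.33 ± 0.62, adjusted p = 0.819) or *Slurp1* (−0.15 ± 0.30, adjusted p = 0.839), beside 6.13% of all genes called in either direction. In D/KO cells, as a description, VC at day 4 went with 3.59-fold *Nccrp1*, 2.84-fold *Slurp1* and 0.894-fold *Tlx2* by mean CPM. At day 2 the D/KO ratios were 1.66, 1.32 and 1.33.

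**Figure D2:**
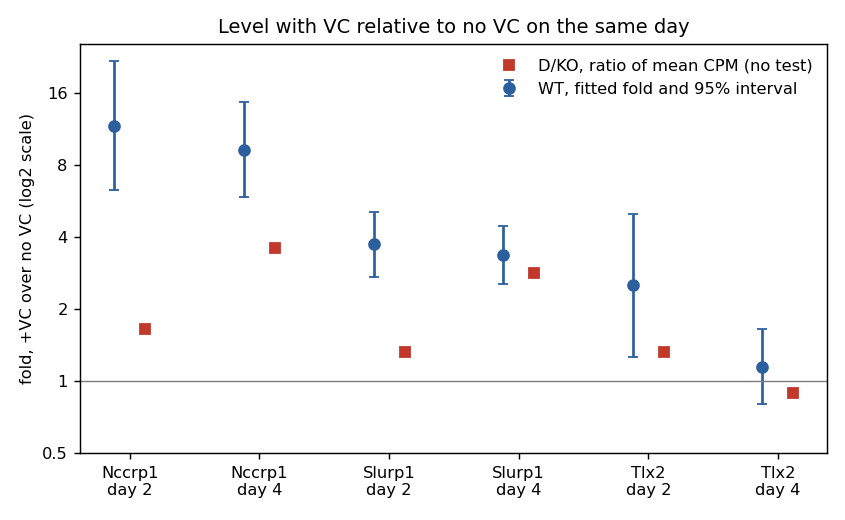
Level with VC relative to no VC on the same day on a log2 axis, with the fitted fold and 95% interval in WT cells (circles) and the ratio of mean CPM in D/KO cells (squares, no test), from 3 libraries a group. *Nccrp1* lies highest in WT cells on both days, and *Tlx2* at day 4 lies near 1 in both lines.

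The ratio of 2 of these genes inside each library is free of the scaling of library totals. In WT cells at day 4, the ratio of *Nccrp1* to *Tlx2* counts (1 added to each) was 0.420, 0.103 and 0.468 without VC and 2.56, 2.54 and 2.84 with VC. The ratio of *Slurp1* to *Tlx2* was 1.33, 1.41 and 1.31 without VC and 4.00, 3.61 and 4.28 with VC. In both cases the groups did not overlap, and the exact two-sided permutation test over 3 against 3 libraries gave p = 0.1, the smallest it can give (adjusted p = 0.12 over 6 ratios). The D/KO libraries of day 4 had *Nccrp1* to *Tlx2* ratios of 1.61, 1.75 and 1.71 without VC and 6.48, 6.94 and 6.95 with VC. At WT day 2 the *Slurp1* to *Tlx2* ratio overlapped between media, from 5.25 to 16 without VC and from 8.39 to 13.2 with VC (exact p = 0.5, adjusted p = 0.5).

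D/KO and WT levels are set side by side without a test, because the D/KO levels chose the genes. At day 2 the D/KO to WT ratio of mean CPM was 86.1 for *Nccrp1*, 26.4 for *Slurp1* and 52.3 for *Tlx2*. At day 4 it was 131, 28.5 and 25.4. With VC the ratios were 11.8, 9.31 and 27.1 at day 2 and 50.4, 23.96 and 19.7 at day 4. Without WT day 2 library 2, the day 2 ratio was 165 for *Nccrp1* and 79.8 for *Tlx2*. Of the 15581 genes with counts in both lines at day 4, 30 had a larger ratio than *Nccrp1*, 151 than *Slurp1* and 170 than *Tlx2*. Without VC at day 2 these numbers were 52, 152 and 81. With VC they were 235, 282 and 96 on day 2, then 114, 223 and 255 on day 4.

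The reprogramming factors themselves differed far less between the lines. *Pou5f1* was 68.8 ± 6.94 CPM in D/KO and 34.3 ± 19.2 CPM in WT cells at day 2 (SD, n = 3), and 64.0 ± 18.7 and 60.5 ± 4.96 CPM at day 4. At day 4 the D/KO to WT ratio was 1.06 for *Pou5f1*, 1.12 for *Sox2*, 0.917 for *Klf4* and 1.38 for *Myc*, and over all 4 conditions with doxycycline the 4 ratios ran from 0.917 to 2.11. These counts can hold both transgene and endogenous transcripts. Per library, *Nccrp1* counts were 142% to 406% of *Pou5f1* counts at D/KO day 4 and 0.473% to 2.39% at WT day 4. *Slurp1* counts were 135% to 357% in D/KO and 6.71% to 7.78% in WT cells on that day, and *Tlx2* counts 82.9% to 232% and 5.12% to 5.81%.

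**Figure D3:**
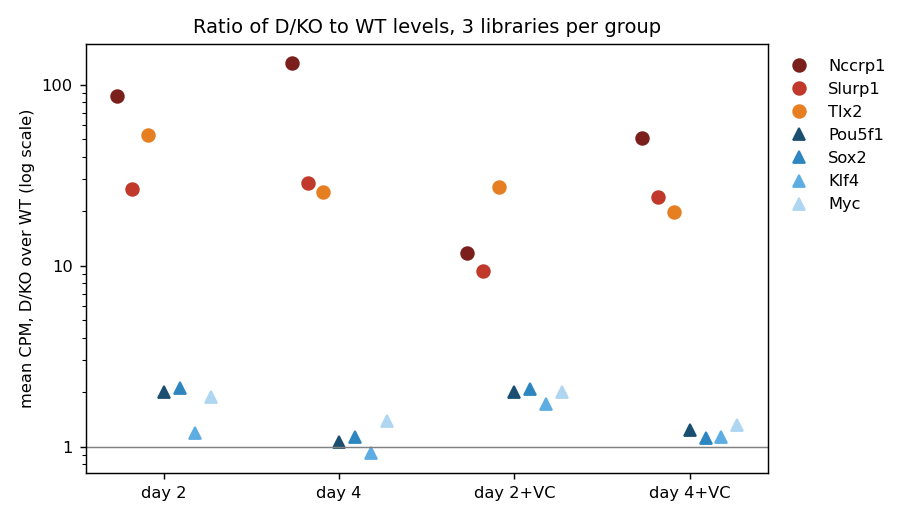
Ratio of mean CPM in D/KO to WT cells on a log axis for the 3 genes (circles) and the 4 reprogramming factors (triangles), by day and medium, with 3 libraries a group. The 3 genes lie between 9.31 and 131 and the factors between 0.917 and 2.11.

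Over the 12 groups, *Nccrp1* and *Slurp1* had the same order of levels from the highest to the eighth: D/KO day 4 plus VC, D/KO day 4, D/KO day 2 plus VC, D/KO day 2, WT day 4 plus VC, WT day 2 plus VC, WT day 4 and WT day 2. For *Slurp1* no neighbours in that order overlapped in range down to WT day 0. For *Nccrp1* the ranges of WT day 4 and WT day 2 overlapped, as did those of WT day 2 and WT day 0. *Tlx2* had another order, with D/KO day 4 before D/KO day 4 plus VC and WT day 4 before WT day 2 plus VC. Its ranges overlapped between the 2 D/KO groups of day 4, between the 2 WT groups of day 4, and from WT day 2 down.

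Levels between genes were compared per exon length (RPKM, from the summed exon lengths in the tables). At D/KO day 4, *Nccrp1* was 92.4 RPKM, *Tlx2* 52.8 RPKM and *Slurp1* 43.2 RPKM, at ranks 439, 812 and 999 of 15832 genes. With VC they were 332, 47.2 and 123 RPKM, at ranks 118, 861 and 326. At WT day 4 plus VC they were 6.58, 2.39 and 5.12 RPKM, at ranks 5476, 8971 and 6430. The *Slurp1* value depends on 1 long annotated last exon. Without that exon the other annotated exons cover 587 bases, over which the same counts would give 216 RPKM at D/KO day 4.

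By D/KO day 0 counts, 241 tested genes had none in the 3 libraries. At D/KO day 4, *Nccrp1*, *Slurp1* and *Tlx2* had the 3 highest CPM of them, a scale that is not corrected for length, and just outside came *Krt16*, a keratin of stressed epidermis, at 71.3 CPM and *Fam180a* at 58.5 CPM. With VC, *Nccrp1* and *Slurp1* were still at ranks 1 and 2 and *Tlx2* was at rank 7 of the 241. These places restate the choice of the 3 genes by their D/KO counts and are no further result.

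The genomic neighbours differed between the 3 loci. *Nccrp1* lies inside the span of *Samd4b*, an RNA-binding protein gene on the same strand, with which it shares no exon base. *Samd4b* was at 171 to 273 CPM in all 12 groups, including the day 0 groups in which *Nccrp1* had at most 2 counts. The part of *Samd4b* reads in the *Nccrp1* counts was not tested. *Sycn*, 1387 bases away, was at 0 in all groups except D/KO day 4 plus VC (0.0538 CPM). *Pak4*, which encodes a p21-activated kinase and lies 11565 bases away on the other side, rose at D/KO day 4 plus VC from 19.3 to 94.7 CPM (log2 change 2.30, edgeR adjusted p = 2.0e-19) and less at WT day 4 plus VC (0.42, adjusted p = 0.00153).

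Around *Slurp1*, *Psca*, a Ly6 family gene 7249 bases away, was at 1.48 CPM at D/KO day 0 and 103 CPM at day 4, and at 1.33 and 111 CPM with VC. In WT cells *Psca* was between 0 and 0.105 CPM, so that it passed the count filter through the D/KO libraries alone, and its D/KO levels are given as a description. *Lypd2*, a Ly6 family gene 4213 bases away on the other side, had 0 counts at D/KO day 0 and reached 25.7 CPM at day 4 and 84.4 CPM at day 4 plus VC. In WT cells *Lypd2* reached 0.627 and 1.85 CPM and was called on both (edgeR adjusted p = 0.000463 and 5.19e-07), and it was higher with VC than without at WT day 4 (log2 change 1.57, adjusted p = 0.00725). *Them6*, which overlaps the 3′ end of *Slurp1* on the opposite strand over 322 exon bases, rose from 4.55 to 11.2 CPM at D/KO day 4 (log2 change 1.30, edgeR adjusted p = 1.70e-05) and was not called at WT day 4 (0.57, adjusted p = 0.0860). Whether counting used strand is not given in the sources used here, so reads in the shared bases could belong to either gene.

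*Tlx2* overlaps no other gene of the annotation. *Dqx1*, 1006 bases away, rose from 0.213 to 6.92 CPM at D/KO day 4 (log2 change 5.03, edgeR adjusted p = 4.43e-08) and from 0.229 to 1.44 CPM at WT day 4 plus VC (2.60, adjusted p = 0.00216). *Pcgf1*, a polycomb group gene 7576 bases away, stayed at 4.18 to 9.47 CPM in all groups and was not called at day 4 in either line or medium (lowest edgeR adjusted p = 0.0814).

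Genes with the most similar pattern were found by Pearson r of log2 CPM (prior count 2) over the 36 libraries, which share the large line and time effects, so r is a description. Apart from each other, *Nccrp1* was closest to *Lypd2* (r = 0.984), *Mal*, which encodes a proteolipid of apical transport (0.978), *2310043M15Rik* (0.9749), *Rab27a*, a GTPase of vesicle secretion (0.973), and *Paics*, a purine synthesis enzyme (0.969). *Slurp1* was closest to *Ngef* (0.986), *Msln*, which encodes mesothelin (0.985), *Paics* (0.984), *Galr2*, a galanin receptor (0.978), and *Tspan15* (0.974). *Tlx2* was closest to *Krt16* (0.978), *Lypd2* (0.972), *Mal* (0.970), *Hbb-y*, an embryonic globin (0.959), and *Cyp2s1* (0.959). Among themselves the 3 genes had r = 0.970 (*Nccrp1* and *Slurp1*), 0.964 (*Nccrp1* and *Tlx2*) and 0.960 (*Slurp1* and *Tlx2*). Over the 18 WT libraries alone these values were 0.907, 0.846 and 0.894. The 3 genes ranked 4th to 25th among each other's most similar genes over the 36 libraries and 99th to 367th over the WT libraries, and of the 5 closest genes 1, 2 and 1 remained for *Nccrp1*, *Slurp1* and *Tlx2*.

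*Mal*, among the closest genes of *Nccrp1* and *Tlx2*, and *Msln*, among those of *Slurp1*, reached higher levels than these genes at day 4. *Mal* went from 0.300 CPM at D/KO day 0 to 496 CPM at day 4 and 728 CPM at day 4 plus VC, and reached 15.4 CPM at WT day 4 plus VC (log2 change 6.45, edgeR adjusted p = 2.98e-17). *Msln* reached 982 CPM at D/KO day 4 plus VC and 98.8 CPM at WT day 4 plus VC (7.36, adjusted p = 2.33e-21). *Krt16* resembled *Tlx2* in the VC contrast too, with 2.04 CPM at WT day 4 and 1.97 CPM with VC (log2 change −0.05, edgeR adjusted p = 0.945), whereas *Mal*, *Rab27a* and *Msln* were higher with VC at WT day 4 (log2 change 2.02, 2.26 and 2.20, largest adjusted p = 5.53e-10).

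**Figure D4:**
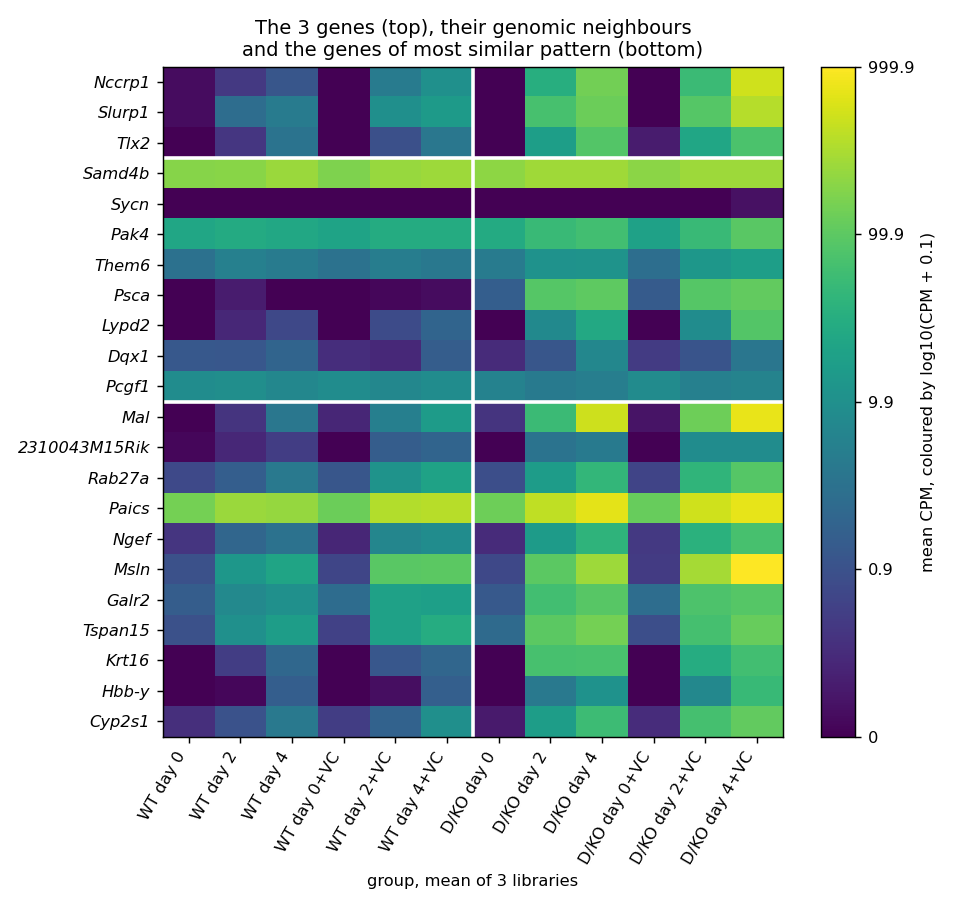
Mean CPM of 3 libraries in each of the 12 groups, coloured by log10(CPM + 0.1), for the 3 genes (top), their genomic neighbours (middle) and the genes of most similar pattern (bottom). *Samd4b* and *Pcgf1* hold about the same colour in all groups, while *Psca* is bright in the D/KO columns of days 2 and 4 and dark in the WT columns.

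The other genes of the pathways around the 3 genes were described from fixed lists, without a test of the list. Of 28 genes of suprabasal squamous epithelium, the layer in which *Nccrp1* and *Slurp1* are known, 21 passed the count filter over all 36 libraries and 13 passed it over the 18 WT libraries alone, so that for the other 8 passing hung on the D/KO libraries. Of the 13, 9 were called higher and 3 lower at D/KO day 4 plus VC, beside 27.9% higher and 26.2% lower among all genes. At WT day 4 plus VC, 10 were called higher and 1 lower, beside 22.7% and 22% of all genes. Without VC it was 7 and 1 at WT day 4, beside 11.7% and 12.8%. At D/KO day 4 it was 8 and 1, beside 18.3% and 18.7%. *Krt80* rose from 1.53 to 208 CPM at D/KO day 4 plus VC (log2 change 7.10, edgeR adjusted p = 2.62e-23). *Krt16* rose from 0 counts to 61.5 CPM. *Sbsn*, which encodes suprabasin, rose from 29.9 to 39.4 CPM (0.40, adjusted p = 0.0387), and *Ecm1*, an extracellular matrix gene that FBs express too, fell from 1428 to 1185 CPM (−0.27, adjusted p = 0.0426). In WT cells *Krt80* was not called at day 4 (0.67, edgeR adjusted p = 0.114) and rose at day 4 plus VC (1.85, adjusted p = 9.45e-05). *Sbsn* rose there on both media (0.80 and 1.66, largest edgeR adjusted p = 0.000332), and *Ecm1* was not called on either.

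Of 42 other Ly6/uPAR family genes, the family of *Slurp1*, 18 passed the filter over all libraries and 9 over the WT libraries alone. Of the 9, 4 were called higher and 3 lower at D/KO day 4, beside 18.3% and 18.7% of all genes, and 1 higher and 2 lower at WT day 4, beside 11.7% and 12.8%. With VC it was 3 higher and 4 lower in D/KO cells, beside 27.9% and 26.2%, and likewise 3 and 4 in WT cells, beside 22.7% and 22%. *Ly6a*, which encodes Sca-1, rose from 734 to 1930 CPM at D/KO day 4 (log2 change 1.39, edgeR adjusted p = 4.61e-08) and *Ly6c1* from 274 to 1075 CPM (1.97, adjusted p = 9.64e-11). Neither was called at WT day 4 without VC (adjusted p = 0.190 and 0.161). With VC, *Ly6c1* rose from 276 to 421 CPM in WT cells (0.61, edgeR adjusted p = 0.00735) and *Ly6a* was not called (0.03, adjusted p = 0.920). At D/KO day 4 without VC, *Ly6e* fell from 218 to 147 CPM (−0.57, adjusted p = 0.00448), and *Lynx1*, a membrane-bound modulator of nicotinic receptors, fell from 67.4 to 49.3 CPM (−0.45, adjusted p = 0.00248). Both also fell at WT day 4 plus VC (−0.81 and −0.94, edgeR adjusted p = 8.37e-05 and 4.84e-08). *Slurp2*, the nearest relative of *Slurp1* in function, did not pass the filter and stayed at or below 0.107 CPM.

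Of 16 nicotinic acetylcholine receptor subunits, the known targets of SLURP1, 3 passed the filter. *Chrna1* rose with VC from 1.97 to 18.9 CPM in D/KO cells at day 4 (log2 change 3.25, edgeR adjusted p = 3.44e-11), and *Chrnb1* fell from 5.96 to 2.23 CPM (−1.41, adjusted p = 2.59e-06). At WT day 4 plus VC they changed in the same directions (log2 change 2.05 and −1.90, edgeR adjusted p = 3.69e-07 and 1.06e-08). *Chrna7*, the subunit at which SLURP1 is best known to act, did not pass the filter and was at 0.464 CPM or less in all groups.

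Of 47 other NKL homeobox genes, the class of *Tlx2*, 11 passed the filter and 10 passed it over the WT libraries alone. Of the 10, 3 were called higher and 4 lower at D/KO day 4 plus VC, beside 27.9% and 26.2% of all genes. *Dlx2* rose from 3.10 to 6.45 CPM (log2 change 1.06, edgeR adjusted p = 0.000915), while *En1*, *Emx2* and *Hlx* fell (−1.51, −0.94 and −2.40, largest adjusted p = 2.77e-07). At D/KO day 4 without VC, 3 of the 10 were called higher and 2 lower, beside 18.3% and 18.7% of all genes. There *Emx2* rose from 13.5 to 19.9 CPM (0.55, edgeR adjusted p = 0.00116), while *Dlx2*, *En1* and *Hlx* kept their direction. The closest relatives of *Tlx2*, *Tlx1* and *Tlx3*, had 0 counts in all 36 libraries. Of 10 BMP response genes, all 10 passed the filter. At D/KO day 4, 5 were called higher and 1 lower (median log2 change 0.53), beside 18.3% and 18.7% of all genes, at D/KO day 4 plus VC 4 and 4 (median −0.22), beside 27.9% and 26.2%, and at WT day 4, where *Tlx2* was called higher, 3 of the 10 were called lower, beside 12.8%, and the other 7 were not called (log2 change −0.27 to 0.37). *Id1*, a direct BMP target, rose from 29.2 to 162 CPM at D/KO day 4 (2.47, adjusted p = 1.42e-08) and was not called at WT day 4 (−0.20, adjusted p = 0.672). At WT day 4 plus VC, 2 of the 10 were called higher and 3 lower, beside 22.7% and 22% of all genes. The 2 were *Id1* (0.85, edgeR adjusted p = 0.0155) and *Id3* (0.55, adjusted p = 0.0433). *Smad6* and *Atoh8* rose at D/KO day 4 (0.81 and 0.67, edgeR adjusted p = 1.88e-05 and 0.00461). At D/KO day 4 plus VC they fell (−0.62 and −0.63, edgeR adjusted p = 0.000468 and 0.00497). Of the 5 other genes with an F-box associated domain, the class of *Nccrp1*, 2 were called lower at D/KO day 4 plus VC, beside 26.2% of all genes, namely *Fbxo17* (−1.83, edgeR adjusted p = 2.70e-11) and *Fbxo44* (−1.22, adjusted p = 0.00502), and the other 3 were not called.

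Markers of other cell types are set beside the 3 genes as the range of their summed level over 3 libraries, with each day 4 group next to the day 0 group of the same medium. The 10 basal keratinocyte markers went from 101 to 105 CPM at D/KO day 0 to 781 to 905 CPM at day 4, and from 35.9 to 44.5 CPM to 2146 to 2475 CPM with VC. In WT cells they went from 44.5 to 52.3 CPM to 145 to 154 CPM without VC, and from 50.7 to 60.3 CPM to 446 to 488 CPM with VC. *Itgb4* (1443 CPM) and *Krt14* (367 CPM) made up most of that sum at D/KO day 4 plus VC, while *Krt5* was at 0.504 CPM and *Krt15* at 0. Markers of neural crest, Schwann cells and melanocytes went from 11.8 to 17.5 CPM to 33.5 to 42.9 CPM in D/KO cells, and from 7.38 to 11.3 CPM to 16.1 to 19.6 CPM with VC, with *Dct* and *Tyr* at 0 in these groups. In WT cells this list went from 4.95 to 5.47 CPM to 8.70 to 9.75 CPM, and from 3.52 to 4.36 CPM to 3.82 to 5.64 CPM with VC.

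The enteric and sympathetic neuron list went from 216 to 240 CPM at D/KO day 0 to 495 to 513 CPM at day 4, and from 30.9 to 34.0 CPM to 533 to 619 CPM with VC. In WT cells it was at 408 to 458 CPM at day 0 and 433 to 473 CPM at day 4, and at 53.6 to 71.6 CPM and 221 to 235 CPM with VC. *Stmn2*, a neuronal gene of microtubule dynamics, made up most of the sum, with 398 CPM at D/KO day 4 and 434 CPM at WT day 4. *Ret*, the receptor of enteric crest cells, rose from 14.97 to 83.6 CPM at D/KO day 4 (log2 change 2.48, edgeR adjusted p = 2.05e-11) and from 0.715 to 78.4 CPM with VC (6.75, adjusted p = 3.49e-19). In WT cells *Ret* rose from 0.969 to 2.17 CPM at day 4 (1.16, adjusted p = 0.0186) and was not called with VC (0.69, adjusted p = 0.395). Of the 5 genes of the list that passed the filter, 2 were called higher and 2 lower at D/KO day 4, beside 18.3% and 18.7% of all genes, and 4 higher and none lower with VC, beside 27.9% and 26.2%. *Tubb3*, a neuronal tubulin gene, fell from 53.2 to 18.2 CPM without VC (−1.55, edgeR adjusted p = 6.54e-08) and rose from 5.03 to 39.7 CPM with it (2.98, adjusted p = 1.44e-13), and *Uchl1* fell likewise without VC (−0.91, adjusted p = 0.00782). *Th* was at 0 in the 4 D/KO groups of day 0 and day 4.

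The leukocyte list went from 13.6 to 15.7 CPM to 85.5 to 140 CPM in D/KO cells, and from 10.2 to 13.8 CPM to 322 to 528 CPM with VC, with *Ptprc* at 0.0176 CPM and *Cd3e* at 0. *Laptm5*, which encodes a lysosomal membrane protein, made up most of the day 4 sums (110 CPM, and 415 CPM with VC), while *Csf1r* (log2 change −1.35, and −3.39 with VC) and *Lyz2* (−0.80 and −2.20) fell on both media (largest edgeR adjusted p = 0.0188). Of the 8 genes that passed the filter, 1 was called higher and 2 lower without VC, beside 18.3% and 18.7% of all genes, and 2 and 2 with it, beside 27.9% and 26.2%. In WT cells the list went from 82.3 to 159 CPM to 61.7 to 75.0 CPM, and from 74.5 to 125 CPM to 59.4 to 63.4 CPM with VC. The endothelial list went from 908 to 970 CPM to 418 to 468 CPM in D/KO cells without VC, and from 338 to 387 CPM to 593 to 825 CPM with VC. Of its 10 genes, 4 passed the filter over the WT libraries alone, and the other 6 were tested through the D/KO libraries. Of the 4, 1 was called higher and 2 lower without VC, beside 18.3% and 18.7% of all genes, and 1 and 3 with it, beside 27.9% and 26.2%. *Pecam1* went from 72.9 to 247 CPM with VC, while *Cdh5*, which encodes VE-cadherin, fell from 103 to 70.8 CPM (log2 change −0.55, edgeR adjusted p = 0.00844). In WT cells the list went from 16.4 to 18.4 CPM to 95.7 to 96.5 CPM, and from 7.17 to 10.1 CPM to 98.6 to 117 CPM with VC, of which *Tek* was 95.1 and 106 CPM. The fibroblast list went from 80601 to 119783 CPM to 37651 to 39337 CPM in D/KO cells, and from 184482 to 254249 CPM to 33325 to 34500 CPM with VC. In WT cells it went from 52516 to 54272 CPM to 46492 to 48793 CPM, and from 156543 to 172185 CPM to 61364 to 72497 CPM with VC. The part of these cell types in the levels of the 3 genes was not tested.

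In the inhibitor table none of the 3 genes passed the count filter. Fitted by edgeR without the filter, 0 of 24 contrasts of the 3 genes were called (lowest edgeR adjusted p = 0.204). Before adjustment 1 of the 24 was under 0.05. *Nccrp1* had 0 counts in 20 of 24 libraries and at most 2 counts in a library, and *Tlx2* had 0 counts in 22 of 24 and at most 2. *Slurp1* had 0 counts in 17 of 24, with 3, 2 and 3 counts in the WT tail tip controls, 0, 1 and 5 with Repsox, and 1, 0 and 1 with A83-01. All 6 D/KO control and WT skin control libraries had 0 counts of *Slurp1*, and so had all libraries with Vactosertib or DMH-1. The difference between WT tail tip control and D/KO control gave exact two-sided permutation p = 0.1, the smallest that 3 against 3 libraries allow (adjusted p = 0.4 over 8 comparisons). At matched doses, Repsox against Vactosertib gave a log2 CPM difference of 0.73 (exact p = 0.4, adjusted p = 0.533). Repsox inhibits the TGF-β type I receptor ALK5, and the study called Vactosertib a dual inhibitor of ALK5 and ALK2. A83-01, an inhibitor of ALK5, against DMH-1, an inhibitor of BMP type I receptors, gave 0.36 (exact p = 0.4, adjusted p = 0.533). These permutation tests could not pass 0.05 with 3 libraries a group. At the depth of this table, 3 counts were 0.0940 to 0.178 CPM. The WT 4FJ Oct4-GFP libraries labelled with TGFB held 1, 0 and 0 counts of *Nccrp1* and none of the other two, and entered no comparison since this table has no other group of that line.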

How the data were processed

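RNA was sequenced by Novogene as 150 bp paired-end reads on an Illumina NovaSeq after poly(A) selection. The authors deposited raw counts per gene, made per the labels with FastQC, Trim Galore, HISAT2 and featureCounts of Subread on GRCm39, with versions not given in the sources used here. From these counts, each table was fitted with edgeR 4.0.16 in R 4.3.3 (filterByExpr with a count of 10 and a total of 15, TMM, 1 coefficient per group, quasi-likelihood test, Benjamini-Hochberg adjustment, threshold 0.05), which tested 15832 and 15652 genes. The fit was tested on simulated data. CPM used TMM-scaled totals. Library totals were 16538374 to 30599138 counts. Alternatives were DESeq2 1.42.0, its size factors in edgeR, other filters and prior counts, fits of only the groups compared, and each library left out. The VC-by-day contrast, the within-library ratios, the D/KO to WT ratios without each library, the WT folds over day 0 without 1 library and the list counts under a filter on WT libraries alone were added after seeing the data.

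The 3 genes and the gene lists were chosen with earlier results of these data known. Named genes were the 3 genes, the reprogramming factors, overlapping and nearest protein coding genes, the 5 genes of highest r per gene, and of each other list up to 4 genes of highest mean CPM among those called at D/KO or WT day 4 plus VC, with *Chrna7*, *Lynx1*, *Slurp2*, *Tlx1* and *Tlx3* whatever their values. *Fam180a* and the single marker genes were chosen after their values were seen. Exon models came from the count tables, and promoter windows from GENCODE M39, which held 98.7% of the gene IDs. Values of some marker genes are not reported here.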

Additional observations from a re-analysis of the deposited data

How the results depend on the processing

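Of the alternatives on the 3 genes in WT contrasts, 316 kept the side of the threshold and did not reverse, 10 lost the call, 8 gained it and 2 reversed. The 316 include uncalled log2 changes of *Nccrp1* and *Slurp1* at WT day 0 plus VC against day 0 that went to 0 with 1 library left out. *Nccrp1* at WT day 2 against day 0 was called without a filter on low counts (log2 change 3.15) and by DESeq2 (3.36), and ranged from 2.21 to 5.73 with 1 library left out. *Nccrp1* at WT day 4 against day 2 was called with DESeq2 size factors (1.55), without a filter (1.51) and by DESeq2 (1.57), and ranged from 1.01 to 2.46. The *Tlx2* response to VC at WT day 2 was not called with only the 2 groups compared (1.33, edgeR adjusted p = 0.134) and ranged from 0.84 to 1.96. With 1 library left out, the *Slurp1* change from day 2 to day 4 ranged from 0.57 to 1.00 without VC and from 0.54 to 0.73 with VC. The difference of the VC effects ranged from −1.29 to 0.17 for *Nccrp1* and from −0.35 to 0.08 for *Slurp1*, and was positive only without WT day 2 library 1, at 0.17 for *Nccrp1* and 0.080 for *Slurp1*. The cause was not tested in these cases.

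Counts of genes called moved by over 1.5 times with only the 2 groups compared, to 2523 from 4140 for D/KO day 0 plus VC against day 0, and to 6400 from 3880 for WT day 4 against day 0. With 1 library left out, the counts ranged from 970 to 1657 for D/KO day 4 against day 2 (1515 with all), from 1067 to 2056 for WT day 2 against day 0 (1672), from 1103 to 3773 for WT day 4 against day 2 (3406) and from 1731 to 2718 for WT day 4 plus VC against day 2 plus VC (3176). On raw totals the WT day 4 levels were 4.86 CPM for *Slurp1* and 3.58 CPM for *Tlx2*. With a prior count of 0.5, 3, 3 and 2 of the 5 most similar genes remained for *Nccrp1*, *Slurp1* and *Tlx2*. A minimum of 10 counts in every library left none of the 3 genes. No paired analysis was possible because the labels give no replicate numbers that groups share. WT levels near 3 counts per library are limited by depth.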
